A study of Mus musculus with 48 samples.

Results

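Sensory neurons of the adult dorsal root ganglion (DRG) were followed from isolation to 42 h in culture while Jun, a transcription factor of the axon injury response, was knocked down, and the changes that took place without most of the Jun transcript were separated from those that were smaller. The libraries were taken by their treatment labels: 4 libraries of cultures given an siRNA pool against Jun (siJun) and 4 taken at time 0, which are 8 of the 48 libraries of the series. All 34183 genes of the table were considered, of which 14044 had enough counts to be tested. The 4 libraries of cultures given a control pool (siCONTROL) were set beside them, because a change was called smaller only where siJun and siCONTROL cultures themselves differed.

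Jun is a subunit of AP-1, a family of dimers that Jun proteins form with each other, with Fos proteins or with ATF proteins, and that bind short DNA elements in promoters and enhancers. In sensory neurons, cutting the axon activates the kinases DLK and JNK, which phosphorylate Jun, and Jun is known as a driver of the program with which peripheral neurons regrow axons. Dissociation of the ganglion cuts every axon, so a culture of these neurons starts from an injury, and over the first days it raises regeneration-associated genes and lowers many genes of mature sensory function.

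In every group the cells came from adult wild-type mice. The siJun cultures were neuron-enriched, were transfected by lipid reagent with 1 pool of siRNAs against Jun directly after isolation, and were harvested 42 h later. The siCONTROL cultures received a control pool in the same way and were harvested at the same time. The time 0 cells were isolated and never cultured or transfected, so that time in culture, plating and transfection cannot be told apart in any comparison with them. Jun had 1 pool, so loss of Jun and other effects of that pool cannot be told apart either. Nothing in the labels ties the 4 replicates of a group to different animals or dishes, and the p-values below therefore refer to library-to-library spread, part of which may be technical. Libraries held 4222035 to 5873874 counts in siJun, 3437120 to 6621566 in siCONTROL and 4444421 to 5293845 at time 0. Levels are given in CPM, counts scaled by library size, which in this table behave as values per transcript length. On the first principal component, which held 65.2% of the variance, siJun libraries lay between -30.81 and -34.15, siCONTROL libraries between -39.49 and -43.37 and time 0 libraries between 72.67 and 75.34.

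Jun itself had 99.1, 89.1, 79.5 and 78.5 CPM in the siJun libraries, against 289.1, 312.6, 266.6 and 296.0 CPM in siCONTROL and 365.3, 314.9, 306.6 and 247.4 CPM at time 0. All 4 siJun libraries lay below all others, and the siCONTROL and time 0 libraries overlapped. By edgeR's quasi-likelihood test with Benjamini-Hochberg adjustment over all genes tested, which stands behind every adjusted p here, Jun was lower in siJun than in siCONTROL (log2 difference -1.75 ± 0.11 SE, adjusted p = 2.82e-06, n = 4 each) and lower than at time 0 (-1.83, adjusted p = 1.08e-08). In siCONTROL the Jun transcript did not pass against time 0 (-0.08, adjusted p = 0.517), so the siRNA left these cultures with less Jun RNA than freshly isolated cells had. Protein was not measured.

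Other AP-1 genes fell or rose in culture by different amounts, and most were not called between the pools. Fos, the partner that immediate early signals induce, had 18.5 to 30.4 CPM in siJun, 16.8 to 28.3 CPM in siCONTROL and 493.6 to 600.3 CPM at time 0. Its fall from time 0 was 4.54 on the log2 scale in siJun (adjusted p = 7.56e-11), and the 95% interval of siJun minus siCONTROL ran from -0.3 to 0.47. Fosb had 5.70 to 7.88 CPM in siJun, 5.23 to 7.32 CPM in siCONTROL and 137.8 to 172.7 CPM at time 0. Atf3, an ATF partner of Jun and the classic marker of axotomised sensory neurons, had 1087, 1051, 903.3 and 1080 CPM in siJun, 1255, 1311, 1064 and 1226 CPM in siCONTROL and 180.0 to 203.6 CPM at time 0. Its rise in siJun was 2.42 ± 0.08 SE on the log2 scale, and siJun minus siCONTROL did not pass (-0.24, adjusted p = 0.0886, 95% interval -0.4 to -0.07). Fosl1 rose too in siJun (3.8, adjusted p = 6.83e-08), and its difference between the pools did not pass (-0.24, adjusted p = 0.595, 95% interval -0.68 to 0.2).

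Junb, the Jun relative that immediate early signals induce, was the AP-1 subunit whose fall was smaller with siJun. It had 116.4, 91.9, 90.8 and 99.8 CPM in siJun, 60.0, 59.5, 58.9 and 53.6 CPM in siCONTROL and 190.4 to 246.4 CPM at time 0, and the 3 groups did not overlap (siJun minus siCONTROL 0.78 ± 0.10 SE, adjusted p = 0.000521). Egr1, an immediate early zinc finger factor, had 34.0, 32.8, 32.9 and 32.4 CPM in siJun, 15.7 to 20.8 CPM in siCONTROL and 160.3 to 268.3 CPM at time 0 (0.84, adjusted p = 0.00504). Jund was higher than at time 0 in siJun (0.30, adjusted p = 0.0113) and did not pass in siCONTROL (0.08, adjusted p = 0.485), with 292.7 to 318.7 CPM in siJun, 240.7 to 293.1 CPM in siCONTROL and 203.5 to 273.9 CPM at time 0, and the difference between the pools did not pass (0.23, adjusted p = 0.186). Of the 19 AP-1 and immediate early genes tested, 3 differed between the pools (Jun lower, Junb and Egr1 higher). Of all genes tested, 3.76% were lower and 2.7% higher in siJun than in siCONTROL.

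**Figure D1:**
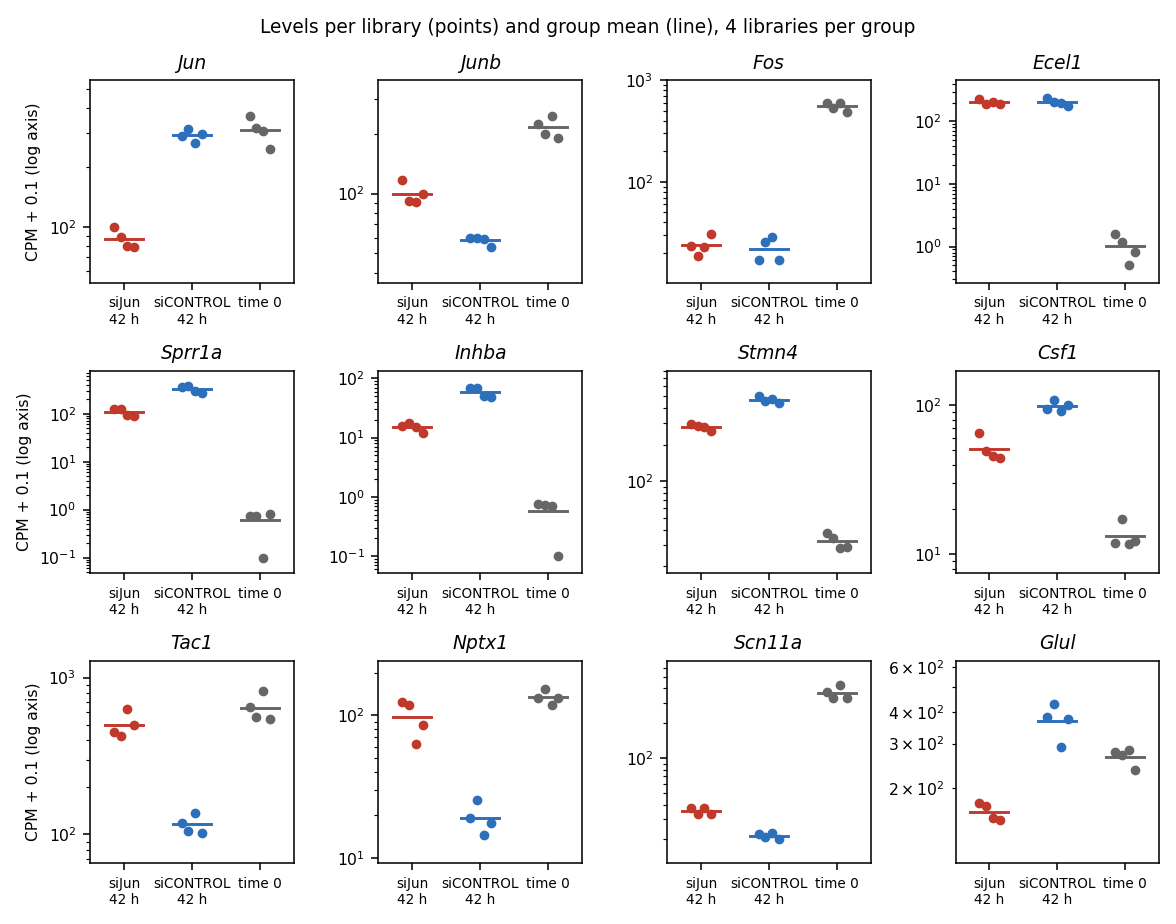
Levels of 12 genes in each library, in CPM plus 0.1 on a log axis that differs between panels, for siJun, siCONTROL and time 0; points are libraries and lines are the mean of 4. Jun lies lowest in siJun, Fos and Ecel1 stand together in both cultures, Sprr1a, Inhba, Stmn4 and Csf1 rise less in siJun, and Tac1, Nptx1 and Scn11a fall less.

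Most of the culture change took place in siJun as well. Against time 0, 4052 genes (28.9% of those tested) were higher and 3891 (27.7%) lower in siJun, 1526 (10.9%) and 1687 (12%) of them at least 2-fold. In siCONTROL, 4231 genes (30.1%) were higher and 3956 (28.2%) lower, 1649 (11.7%) and 1798 (12.8%) at least 2-fold. These comparisons share the 4 time 0 libraries, so their likeness is no result of its own. Genes of the culture change were therefore chosen by the mean of both cultures against time 0, whose error is independent of the difference between the pools. This gave 1592 genes raised at least 2-fold (11.3% of those tested) and 1759 lowered at least 2-fold (12.5%), and each was then asked for siJun minus siCONTROL, which is the difference of the culture changes.

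Of the 1592 raised genes, 137 (8.61%) were lower in siJun than in siCONTROL, so that their rise was smaller, and 39 (2.45%) were higher. For 518 (32.5%) the 95% interval of the difference lay within 1.5-fold either way, 24 of the 518 were called as well, and 922 were neither called nor bounded so tightly. The 1592 were chosen on the mean of both cultures, and 1403 of them (88.1%) were called at least 2-fold above time 0 in siJun alone, against 1470 in siCONTROL alone. Of the 1759 lowered genes, 134 (7.62%) were higher in siJun, so that their fall was smaller, 34 (1.93%) were lower, 477 (27.1%) were bounded within 1.5-fold, 17 of these were called as well, and 1131 were neither. In siJun alone 1552 (88.2%) were called at least 2-fold below time 0, against 1631 in siCONTROL alone. Among the 10693 other genes, 357 (3.34%) were lower and 206 (1.93%) higher in siJun. Over all genes tested, 528 were lower and 379 higher in siJun than in siCONTROL, 69 (0.491%) and 73 (0.52%) of them at least 2-fold, and 52% were bounded within 1.5-fold. Leaving out any 1 of the 8 culture libraries gave 18 to 25 raised genes that were higher, with the fewest without siJun replicate 3. Without siJun replicate 3 or siJun replicate 4 there were 248 genes higher in either case and 336 or 324 genes lower in siJun than in siCONTROL. The count of lowered genes that were lower was 21 without siJun replicate 3, and that of genes at least 2-fold lower was 44 without siJun replicate 4.

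**Figure D2:**
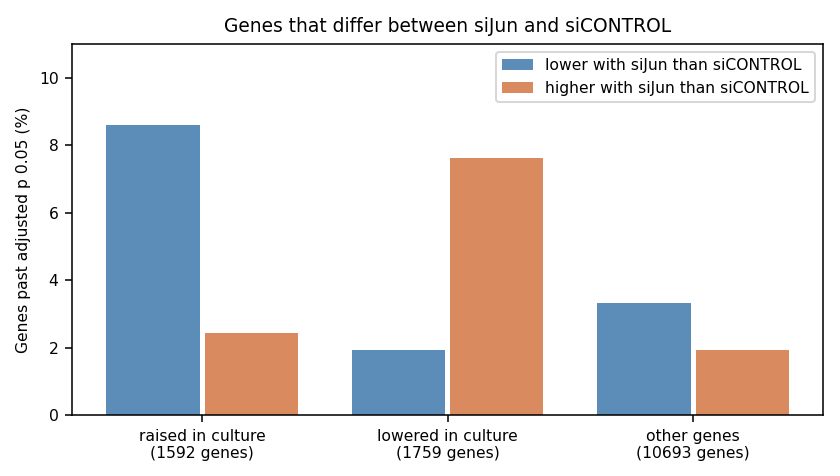
Share of genes, in percent, that were lower (blue) or higher (orange) in siJun than in siCONTROL at an adjusted p under 0.05, for 1592 genes raised in culture, 1759 lowered in culture and 10693 others. Of the raised genes 8.61% were lower and 2.45% higher, and of the lowered genes 1.93% were lower and 7.62% higher.

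The smaller rises were seldom lost. Over the 137 genes the median log2 change from time 0 was 1.72 in siJun and 2.49 in siCONTROL, a median of 70.3% of the log2 change left, with quartiles of 60.4% and 77.5%. Of these genes, 129 still passed as raised in siJun, 111 of them at least 2-fold, and 8 did not pass. In 14 under 50% of the log2 change was left. Over the 134 smaller falls the medians were -1.36 in siJun and -2.21 in siCONTROL, with a median of 65.4% left. There 128 still passed as lowered, 104 at least 2-fold, and 6 did not pass. These values describe genes chosen by the difference itself, so they carry no test. Over all raised genes the median of siJun minus siCONTROL was -0.105, over all lowered genes 0.116, and over all genes tested -0.001.

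All genes tested were also binned by the size of their mean culture change alone, whether or not that change was called. Among genes that rose, the difference between the pools grew with that size. Its median was -0.06 for rises of 1 to 2 on the log2 scale and -0.16 for rises of 2 to 3. It was -0.20 for rises of 3 to 4 and -0.43 for the 169 genes with larger rises. Among genes that fell the medians were 0.09 for falls of 1 to 2 and 0.15 for falls of 2 to 3. They were 0.37 for the 122 genes with falls of 3 to 4, and 0.10 for the 79 with larger falls. This last group, many of whose members have few counts left in culture, had quartiles of -0.33 and 1.08.

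**Figure D3:**
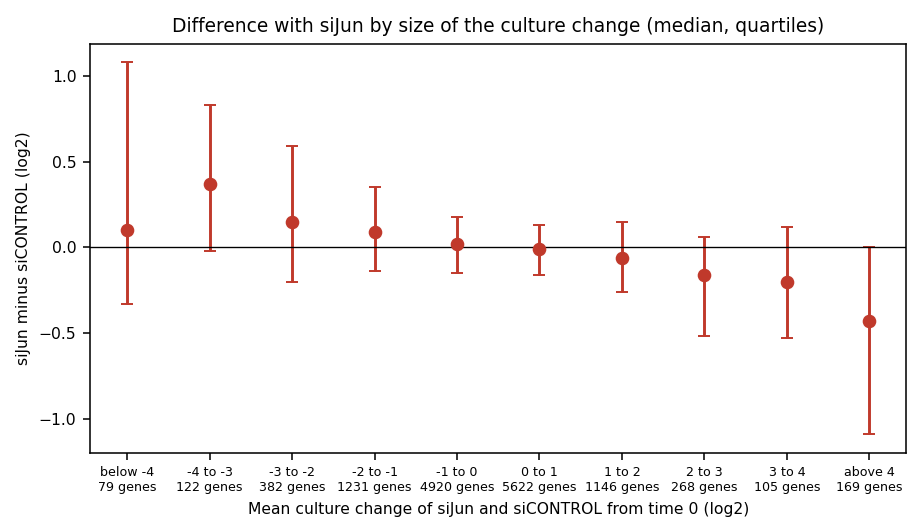
Median and quartiles of siJun minus siCONTROL (log2) for genes binned by their mean culture change from time 0 (log2), with the number of genes under each bin. The median is -0.43 in the bin above 4 and 0.37 in the bin from -4 to -3, and lies near 0 for genes that changed little.

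The cultures also held other cells, and in bulk RNA fewer cells of a type and less RNA per cell cannot be told apart. The summed level of 10 satellite glia markers was 457.8 to 695.6 CPM in siJun, 697.9 to 825.8 CPM in siCONTROL and 4432 to 5514 CPM at time 0. Glul is 1 of these markers and the 1 called between the pools, and without it the sums were 286.6 to 545.5 CPM in siJun and 268.5 to 470.5 CPM in siCONTROL. Apoe, the most abundant of them at time 0, had 162.5 to 373.1 CPM in siJun, 169.1 to 332.5 CPM in siCONTROL and 3524 to 4444 CPM at time 0. For 12 Schwann cell markers the sums were 1371 to 1754 CPM in siJun, 1599 to 1910 CPM in siCONTROL and 2815 to 3150 CPM at time 0, with Pmp22 called lower in siJun (-0.59, adjusted p = 0.00109). Without Pmp22 the sums were 783.2 to 1126 CPM in siJun and 730.4 to 1039 CPM in siCONTROL. Fibroblast markers summed to 169.8 to 276.1 CPM in siJun and 133.3 to 279.4 CPM in siCONTROL, and macrophage markers to 23.5 to 34.0 CPM in siJun and 27.8 to 48.9 CPM in siCONTROL, and no member of either list was called by edgeR or DESeq2, with 1 macrophage marker and no fibroblast marker at an unadjusted p under 0.05. Of 10 markers of endothelial and mural cells, Rgs5 was called, at 46.0 to 49.4 CPM in siJun and 65.5 to 71.1 CPM in siCONTROL (-0.53, adjusted p = 0.0022). Pan-neuronal markers summed to 11744 to 14021 CPM in siJun, 13918 to 16697 CPM in siCONTROL and 18489 to 19541 CPM at time 0. Without Nefl the sums were 10671 to 12333 CPM in siJun and 11995 to 13830 CPM in siCONTROL, and of the 14 markers Nefl (-0.73), Gap43 (-0.49) and Tubb3 (-0.42) were called lower and Prph (0.26) higher in siJun than in siCONTROL. Rbfox3, the neuronal splicing factor NeuN and 1 of the 10 not called, had 53.3 to 68.5 CPM in siJun and 43.8 to 61.6 CPM in siCONTROL (0.21, adjusted p = 0.305). Mitochondrially encoded genes summed to 21504 to 47699 CPM in siJun, 22334 to 35304 CPM in siCONTROL and 50612 to 58324 CPM at time 0, and none of 13 was called between the pools by edgeR or DESeq2, with 1 at an unadjusted p under 0.05. The part of these shifts from time 0 in the culture changes of other genes was not tested.

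Regeneration-associated genes held many of the smaller rises. Of 36 tested, 28 were higher and 5 lower than at time 0 in siJun (median 2.02 on the log2 scale), against 31 higher and 4 lower in siCONTROL (median 2.56), while the median of all genes was 0.043 in siJun and 0.034 in siCONTROL. In siJun 22 of the 36, Jun included, were lower than in siCONTROL (median -0.45), against 3.76% of all genes tested. None of the 36 was higher by edgeR, by DESeq2 or at an unadjusted p under 0.05, and 2.7% of all genes tested were higher by edgeR. Of the 26 that were raised in culture, 16 rose less in siJun and 7 were bounded within 1.5-fold of siCONTROL. Of all raised genes, 8.61% were lower in siJun and 32.5% were bounded.

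Sprr1a, a cornified envelope protein that axotomised neurons make in large amounts and that promotes neurite growth, had 126.6, 125.4, 92.8 and 90.3 CPM in siJun, 353.8, 377.1, 294.9 and 266.4 CPM in siCONTROL and 0.704 CPM or less at time 0. No siJun library reached the lowest of siCONTROL (-1.57 ± 0.15 SE, adjusted p = 4.34e-05), and all were far above time 0. Inhba, which encodes the subunit of activin A, a secreted TGF-beta family ligand, had 15.8, 17.8, 15.3 and 11.7 CPM in siJun, 68.2, 69.9, 51.2 and 48.9 CPM in siCONTROL and at most 0.644 CPM at time 0 (-1.98 ± 0.18 SE, adjusted p = 4.34e-05). Its level in siJun was 3.94-fold lower than in siCONTROL, with no overlap, and still 4.89 on the log2 scale above time 0. Smaller differences of the same sign were found for Plaur, the receptor of urokinase, with 134.6 to 168.9 CPM in siJun and 259.6 to 288.5 CPM in siCONTROL (-0.85, adjusted p = 0.00368). Adcyap1, the precursor of the neuropeptide PACAP, had 732.9 to 1139 CPM in siJun and 1399 to 1761 CPM in siCONTROL (-0.77, adjusted p = 0.00904). Cd44, the receptor of hyaluronan, had 247.3 to 322.4 CPM in siJun and 434.3 to 508.6 CPM in siCONTROL (-0.72, adjusted p = 0.00058). Sox11, a factor that promotes axon growth, had 23.0 to 36.6 CPM in siJun and 34.6 to 46.1 CPM in siCONTROL, groups that overlapped, and did not pass (-0.41, adjusted p = 0.0908).

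The other raised genes with the strongest loss of their rise came from several functions. Star, the mitochondrial cholesterol carrier, had 18.3, 24.6, 14.1 and 17.1 CPM in siJun and 64.7, 101.9, 40.4 and 67.5 CPM in siCONTROL, with at most 0.644 CPM at time 0 (-1.90 ± 0.24 SE, adjusted p = 0.00049). Mmp12, the macrophage metalloelastase, had 8.38 to 9.17 CPM in siJun and 23.1 to 37.6 CPM in siCONTROL and was at 0 in 3 of the 4 time 0 libraries (-1.79, adjusted p = 0.000361). The neuropeptide receptor gene Qrfpr had 2.96 to 8.05 CPM in siJun, 20.4 to 25.6 CPM in siCONTROL and at most 1.29 CPM at time 0 (-2.17, adjusted p = 0.00138). For these genes the cultures did not overlap with each other. The growth factor gene Fgf3 had 1.17 to 5.0 CPM in siJun and 10.5 to 18.5 CPM in siCONTROL (-2.07, adjusted p = 0.0165), a call that was lost without siJun replicate 4 (adjusted p = 0.0546) or without siCONTROL replicate 2 (adjusted p = 0.0673). The uncharacterised gene 2210017I01Rik had 6.17 to 14.8 CPM in siJun and 24.2 to 66.0 CPM in siCONTROL (-2.26, adjusted p = 0.00504), a call that did not pass by DESeq2 (adjusted p = 0.0796). The rise of Yjefn3 did not pass in siJun, where it had 4.01 to 10.5 CPM, against 19.0 to 36.6 CPM in siCONTROL and 4.41 to 7.51 CPM at time 0 (siJun minus time 0 of 0.35, adjusted p = 0.353).

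Stretches of 300 bases around the start of some of these genes, from 250 before to 50 after it, are shown because Jun dimers bind such motifs. Jun, Sprr1a, Mmp12 and the phosphatase gene Dusp10 were lower in siJun than in siCONTROL, and Ecel1 was not called between them. Capitals mark the motifs TGANTCA, the AP-1 type, and TGACNTCA, the CRE type, searched on both strands. Sequences are RefSeq's on the GRCm38.p6 build and run in the direction of transcription.
Jun, chr4:95052173-95052472, minus strand: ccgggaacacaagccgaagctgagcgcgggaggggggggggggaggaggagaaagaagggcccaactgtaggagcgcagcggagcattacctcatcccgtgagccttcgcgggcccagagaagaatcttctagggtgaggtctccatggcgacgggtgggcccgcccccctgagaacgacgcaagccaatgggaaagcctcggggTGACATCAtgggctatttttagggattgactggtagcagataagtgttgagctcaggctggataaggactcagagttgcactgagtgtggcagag
Sprr1a, chr3:92485832-92486131, minus strand: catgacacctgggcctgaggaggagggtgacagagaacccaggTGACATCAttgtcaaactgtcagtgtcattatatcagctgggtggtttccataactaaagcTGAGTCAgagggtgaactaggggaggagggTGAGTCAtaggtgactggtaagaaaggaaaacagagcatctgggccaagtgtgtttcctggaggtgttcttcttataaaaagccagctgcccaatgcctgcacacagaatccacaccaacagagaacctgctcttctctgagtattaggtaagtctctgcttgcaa
Mmp12, chr9:7347124-7347423, plus strand: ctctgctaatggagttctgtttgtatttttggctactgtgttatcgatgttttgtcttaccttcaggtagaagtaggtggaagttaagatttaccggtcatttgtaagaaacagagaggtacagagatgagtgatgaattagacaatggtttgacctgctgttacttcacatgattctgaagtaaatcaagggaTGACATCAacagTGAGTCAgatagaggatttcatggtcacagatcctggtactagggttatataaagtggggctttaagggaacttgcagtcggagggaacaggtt
Dusp10, chr1:184034131-184034430, plus strand: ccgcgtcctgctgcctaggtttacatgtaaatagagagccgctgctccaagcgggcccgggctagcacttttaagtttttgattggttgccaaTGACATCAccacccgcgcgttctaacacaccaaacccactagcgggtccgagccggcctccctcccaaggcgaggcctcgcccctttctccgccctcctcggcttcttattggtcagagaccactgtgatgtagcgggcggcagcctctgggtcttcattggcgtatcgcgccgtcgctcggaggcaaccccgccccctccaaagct
Ecel1, chr1:87156307-87156606, minus strand: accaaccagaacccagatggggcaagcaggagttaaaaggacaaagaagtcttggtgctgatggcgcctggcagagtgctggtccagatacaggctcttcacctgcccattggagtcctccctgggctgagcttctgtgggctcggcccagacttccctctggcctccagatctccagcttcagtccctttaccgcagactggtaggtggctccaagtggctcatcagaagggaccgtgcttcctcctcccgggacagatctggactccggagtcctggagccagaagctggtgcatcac

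Jun and Dusp10 each held 1 TGACATCA, Sprr1a held 1 TGACATCA and 2 of the form TGAGTCA, and the second of the annotated starts of Mmp12 held 1 of each. The window at the other Mmp12 start and that of Ecel1 held no match, which says only that these letters are absent there. Of 32851 such windows in the mouse table, 7.81% held TGANTCA, 8.83% held TGACNTCA and 15.9% held either, so single matches are common. Among the other named genes, matches stood in genes lower in siJun, higher in siJun and not called. Whether a match goes with the direction of the difference was not tested. Of genes lower in siJun, Plaur held TGANTCA, Hrh1 both motifs, and Dusp1, Hk1, Insig1, Farsa and Rgs5 TGACNTCA. Neither motif was held by Inhba, Qrfpr, Fgf3, Csf1, Yjefn3, Glul, Npy, Sdf2l1, Pmp22, Cd44 or Adcyap1, which were also lower. Tubb3, Rps6, Tmem25, Wnt2b, Lrrtm3, Ccdc39, Gadd45a and Cckbr, lower as well, held neither. Of genes higher in siJun, Serpinb8, Il6 and Cacng5 held TGANTCA and Pnpla3 and Calca TGACNTCA, while Fgf21, Nab2 and Tac1 held neither. Others that were higher and held neither include Cdsn, Junb, Scn10a, Scn11a, Pou4f1, Sv2a, Slc1a4, Cntnap5b and Hap1. Nts, Plcb3 and Mmp3, which were not called between the pools, each held TGANTCA. Windows were at hand for 91 of the 137 genes with smaller rises, which is too few for a share over that group, and none is given.

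Genes of the matrix and of its proteases rose in culture and did so less with siJun in part. Of 31 integrin, matrix and protease genes, 23 were higher than at time 0 in siJun and 22 in siCONTROL, 18 were raised in culture, and 7 of these 18 were lower in siJun while 4 were bounded within 1.5-fold. Of all raised genes, 8.61% were lower in siJun and 32.5% bounded. Plaur, Itga7 and Cd44, which were lower in siJun, are also counted among the regeneration-associated genes. Itga7, the laminin-binding integrin chain, averaged 394.4 ± 51.7 CPM in siJun, 669.8 ± 64.7 CPM in siCONTROL and 100.7 ± 6.20 CPM at time 0 (SD, n = 4 each, -0.76, adjusted p = 0.000361). The stromelysin Mmp3 rose in both, with 19.8 to 39.3 CPM in siJun, 20.6 to 53.8 CPM in siCONTROL and no count at time 0, at least 164.7-fold in siJun against a floor of 3 counts over the group. Its difference between the pools did not pass (-0.31, adjusted p = 0.66).

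Part of the cytoskeletal and growth cone genes were lower in siJun, some of them raised and some lowered by culture. Of 33, 13 were lower and 2 higher in siJun than in siCONTROL (median -0.26), against 3.76% and 2.7% of all genes tested. Tubb6, Stmn4, Basp1, Gap43, Tubb2b and Tubb3, which were lower, are also counted among the regeneration-associated genes. Stmn4, a stathmin that regulates microtubules, had 292.5, 281.1, 278.8 and 258.9 CPM in siJun, 501.3, 453.7, 472.5 and 434.8 CPM in siCONTROL and 28.3 to 37.1 CPM at time 0 (-0.74 ± 0.08 SE, adjusted p = 9.67e-05). Tubb6, a beta tubulin, had 88.6 to 107.1 CPM in siJun, 172.2 to 204.2 CPM in siCONTROL and 10.2 to 15.4 CPM at time 0 (-0.87, adjusted p = 0.000175). Both rises were smaller, with no overlap between the cultures. Gap43, the growth cone phosphoprotein, had 504.2 to 672.2 CPM in siJun, 767.4 to 864.7 CPM in siCONTROL and 333.1 to 400.8 CPM at time 0 (-0.49, adjusted p = 0.00634). Tubb3, the neuronal beta tubulin, was lowered in culture, and further in siJun, with 1606 to 2063 CPM in siJun, 2242 to 2717 CPM in siCONTROL and 3128 to 3498 CPM at time 0 (-0.42, adjusted p = 0.01). Nefl, the light neurofilament chain, fell from time 0 in siJun (-0.94, adjusted p = 0.000111) and did not pass in siCONTROL (-0.21, adjusted p = 0.253), and it was lower in siJun than in siCONTROL (-0.73, adjusted p = 0.01). Mapt, which encodes tau, averaged 202.5 ± 18.7 CPM in siJun, 147 ± 18.5 CPM in siCONTROL and 472.8 ± 23.0 CPM at time 0 (SD, n = 4 each), a smaller fall in siJun (0.46, adjusted p = 0.0085).

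Among secreted signals, the rise of Csf1, a growth factor for macrophages and microglia, was smaller in siJun. It had 65.4, 49.2, 45.6 and 44.2 CPM in siJun, 94.8, 109.1, 91.5 and 100.2 CPM in siCONTROL and 11.6 to 17.1 CPM at time 0 (-0.95 ± 0.13 SE, adjusted p = 0.000892), and the cultures did not overlap. Il34, which signals through the receptor of Csf1, had 62.9 to 72.5 CPM in siJun, 62.9 to 79.1 CPM in siCONTROL and 16.7 to 23.1 CPM at time 0, and its interval of siJun minus siCONTROL ran from -0.24 to 0.19. Of 10 macrophage-recruiting signals tested, Csf1 was the 1 called between the pools. Of 17 genes of the DLK-JNK pathway, 2 were called, both phosphatases of MAP kinases and both lower in siJun, as were 3.76% of all genes tested. Dusp10, which acts on JNK and p38, had 11.1 to 16.2 CPM in siJun, 25.9 to 31.0 CPM in siCONTROL and 4.81 to 7.26 CPM at time 0 (-1.04, adjusted p = 0.000954). Dusp1 had 124.9 to 145.9 CPM in siJun, 190.7 to 214.8 CPM in siCONTROL and 101.6 to 121.5 CPM at time 0 (-0.53, adjusted p = 0.000954).

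Neuropeptide genes went both ways. Of 25 tested, 15 were higher and 9 lower than at time 0 in each culture, and between the pools 4 were higher and 4 lower in siJun. Of those called between the pools, Npy and Adcyap1 are also counted among the regeneration-associated genes, and Tac1, Calca and Calcb among the nociceptor markers. The 11 raised in culture held 4 whose rise was smaller and 4 bounded within 1.5-fold, against 8.61% and 32.5% of all raised genes. Over all genes tested, 2.7% were higher and 3.76% lower in siJun than in siCONTROL. Npy, the precursor of neuropeptide Y, had 28.7, 30.8, 5.37 and 18.0 CPM in siJun, 62.6, 71.7, 52.6 and 34.1 CPM in siCONTROL and at most 2.15 CPM at time 0. These libraries vary widely, the lowest siCONTROL value lies just above the highest of siJun, and the call (-1.43, adjusted p = 0.0497) was lost in 14 of 20 alternatives, with adjusted p up to 0.177. Crh, the precursor of corticotropin-releasing hormone, had 0.546 to 1.67 CPM in siJun, 2.98 to 4.39 CPM in siCONTROL and no count at time 0. Its call (-1.73, adjusted p = 0.0404) was lost in 12 of 19 alternatives, with adjusted p up to 0.125. Nts, the precursor of neurotensin, rose in siJun almost as far as in siCONTROL, with 362.0 to 450.9 CPM in siJun, 422.9 to 555.4 CPM in siCONTROL and 9.62 to 17.1 CPM at time 0 (-0.26, adjusted p = 0.224). Gal, the precursor of galanin, had 208.9 to 348.0 CPM in siJun, 213.9 to 363.9 CPM in siCONTROL and 68.7 to 115.7 CPM at time 0, and both cultures overlapped (-0.13, adjusted p = 0.803).

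Among raised genes bounded within 1.5-fold between the pools, with a mean of at least 5 CPM, Ecel1 had the largest change. It encodes a membrane endopeptidase of injured neurons and had 228.8, 186.7, 200.6 and 191.0 CPM in siJun, 238.2, 202.3, 194.8 and 176.2 CPM in siCONTROL and 1.5, 1.07, 0.401 and 0.704 CPM at time 0. The cultures overlapped fully and lay far above time 0 (siJun minus time 0 of 7.75 ± 0.20 SE, adjusted p = 4.82e-12), and the interval of siJun minus siCONTROL ran from -0.23 to 0.22. The orphan receptor gene Gpr151 had 61.9 to 65.4 CPM in siJun, 75.9 to 86.0 CPM in siCONTROL and 0.858 to 2.78 CPM at time 0 (-0.36, adjusted p = 0.0563). Lgals3, which encodes galectin-3, had 611.1 to 764.1 CPM in siJun, 715.8 to 954.3 CPM in siCONTROL and 18.1 to 29.0 CPM at time 0 (-0.23, adjusted p = 0.269). Sez6l had 102.0 to 140.9 CPM in siJun, 87.0 to 134.8 CPM in siCONTROL and 3.01 to 7.04 CPM at time 0. Nes, the intermediate filament gene nestin, had 68.4 to 87.6 CPM in siJun, 88.4 to 110.7 CPM in siCONTROL and 3.29 to 4.93 CPM at time 0 (-0.32, adjusted p = 0.0817). Cyp1a1, a cytochrome P450 of the aryl hydrocarbon receptor response, had 13.3 to 15.5 CPM in siJun, 13.2 to 18.6 CPM in siCONTROL and at most 0.429 CPM at time 0. All of these were bounded within 1.5-fold between the pools, although for Gpr151 and Nes every siJun library lay below every siCONTROL library.

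The integrated stress response, in which Atf4 and its targets restore amino acid supply, rose in culture in siJun and siCONTROL. Of its 17 regulators, 17 were higher than at time 0 in siJun and 16 in siCONTROL, 13 were raised at least 2-fold, none of the 13 was lower in siJun by edgeR, by DESeq2 or at an unadjusted p under 0.05, and 10 were bounded within 1.5-fold. Of all raised genes 32.5% were bounded, and being bounded also depends on level, since few counts give wide intervals. Of the 17, 2 were higher in siJun than in siCONTROL by edgeR and 2 by DESeq2, and 4 were so at an unadjusted p under 0.05. Those called by edgeR were Atf5, a relative of Atf4 (0.35, adjusted p = 0.0342), and Txnip, the thioredoxin-interacting protein (0.46, adjusted p = 0.0349), and they did not pass in 7 and 9 of 20 alternatives. Chac1, which degrades glutathione, had 116.7, 121.3, 137.7 and 120.0 CPM in siJun, 119.4, 104.7, 125.0 and 88.4 CPM in siCONTROL and 8.97 to 11.6 CPM at time 0 (siJun minus time 0 of 3.61, adjusted p = 9.02e-11). Adm2, a secreted peptide gene, had 10.2 to 16.2 CPM in siJun, 10.2 to 15.4 CPM in siCONTROL and no count at time 0, at least 76.5-fold higher in siJun. Slc7a11, the cystine transporter, had 8.89 to 16.1 CPM in siJun, 9.36 to 17 CPM in siCONTROL and 1 count over the time 0 libraries. These cultures overlapped in all 3 genes.

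Genes of amino acid supply and tRNA charging also rose. Of 14 amino acid synthesis and folate enzymes 13 were higher than at time 0 in each culture and none was called between the pools by edgeR or DESeq2, with 4 at an unadjusted p under 0.05. Psat1, an enzyme of serine synthesis, had 160.1 to 205.6 CPM in siJun, 161.2 to 184.0 CPM in siCONTROL and 32.7 to 41.2 CPM at time 0. Of 20 cytosolic tRNA synthetases 18 were higher than at time 0 in siJun and 19 in siCONTROL, and all 10 that were raised at least 2-fold were bounded within 1.5-fold, against 32.5% of all raised genes. Farsa was called lower (-0.30) and Eprs higher (0.22) in siJun than in siCONTROL, and these calls did not pass in 17 and 9 of 20 alternatives. Cars, the cysteine enzyme, had 92.6 to 97.4 CPM in siJun, 82.3 to 113.2 CPM in siCONTROL and 26.1 to 31.2 CPM at time 0. Slc1a4, a transporter of neutral amino acids, was higher in siJun, with 98.4 to 105.3 CPM in siJun, 73.6 to 76.1 CPM in siCONTROL and 50.5 to 53.2 CPM at time 0 (0.46, adjusted p = 0.00049).

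Most targets of p53 and most chaperones of the endoplasmic reticulum were higher than at time 0 in both cultures. Of 21 p53 target and apoptosis genes, 15 were higher than at time 0 in siJun and 16 in siCONTROL, and of the 14 raised at least 2-fold, 9 were bounded within 1.5-fold and 2 were lower in siJun, against 32.5% and 8.61% of all raised genes. Bcl2l1, which encodes a protein that holds back cell death, was the 1 of the 21 that was higher in siJun than in siCONTROL (0.39). Cdkn1a, the cell cycle inhibitor p21, had 808.9, 745.5, 820.6 and 733.5 CPM in siJun, 886.1, 805.6, 784.3 and 758.7 CPM in siCONTROL and 54.7 to 64.6 CPM at time 0, with an interval of siJun minus siCONTROL from -0.2 to 0.09. Pmaip1, which encodes the death-promoting protein Noxa, had 17.7 to 23.1 CPM in siJun, 29.7 to 40.1 CPM in siCONTROL and 0.858 to 3.29 CPM at time 0 (-0.85, adjusted p = 0.0114). Of 16 chaperones of the endoplasmic reticulum, 13 were higher than at time 0 in siJun and 12 in siCONTROL. Of these 16, 3 were raised at least 2-fold, of which 1 was bounded within 1.5-fold and 1 was lower in siJun. Sdf2l1, a cofactor of that machinery, was the 1 called between the pools, with 49.7 to 51.8 CPM in siJun, 78.2 to 89.8 CPM in siCONTROL and 16.2 to 23.0 CPM at time 0 (-0.75, adjusted p = 0.000267). Of 80 ribosomal protein genes 3 were lower and 0 higher in siJun than in siCONTROL, a share near the 3.76% of all genes tested that were lower. The largest of these differences was that of Rps6, with 544.5, 452.3, 478.9 and 475.3 CPM in siJun, 891.6, 851.9, 808.3 and 796.3 CPM in siCONTROL and 509.2 to 601.7 CPM at time 0 (-0.78, adjusted p = 4.34e-05). Rps6 rose from time 0 in siCONTROL (0.59, adjusted p = 8.7e-06), while its siJun libraries overlapped time 0 (-0.19, adjusted p = 0.0328, not past in 7 of 20 alternatives).

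**Figure D4:**
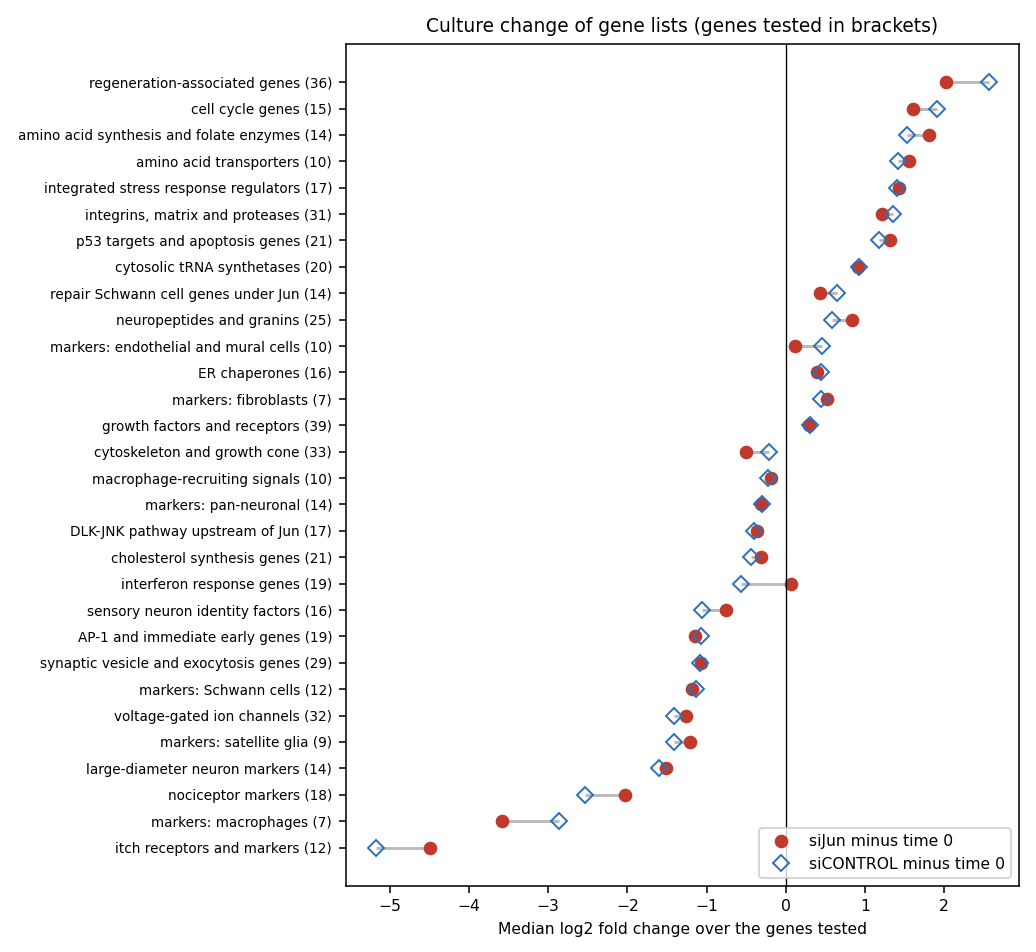
Median log2 change from time 0 over the tested members of 30 gene lists, in siJun (filled circles) and siCONTROL (open diamonds), with the number of genes in brackets. The regeneration-associated genes lie at 2.02 in siJun and 2.56 in siCONTROL, the nociceptor markers at -2.03 and -2.53, and the integrated stress response, tRNA synthetase and synaptic lists nearly coincide.

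Some rises were larger in siJun, 39 of the 1592. Fgf21, a stress-induced hormone, had 13.7, 32.1, 15.3 and 15.8 CPM in siJun, 2.93, 2.12, 1.99 and 5.0 CPM in siCONTROL and counts in 1 library at time 0 (siJun minus siCONTROL 2.70 ± 0.42 SE, adjusted p = 0.0019). Replicate 2 of siJun lay above the rest, and without it every siJun value still exceeded every siCONTROL value. Cdsn, an adhesion protein of the skin, had 10.0 to 16.4 CPM in siJun, 1.59 to 4.10 CPM in siCONTROL and at most 0.427 CPM at time 0 (2.02, adjusted p = 0.00203). Serpinb8, a serine protease inhibitor, had 71.7 to 92.1 CPM in siJun, 29.7 to 41.6 CPM in siCONTROL and 12.2 to 20.1 CPM at time 0 (1.32, adjusted p = 0.000177). Nab2, a corepressor of Egr factors, had 31.9, 32.4, 34.4 and 30.0 CPM in siJun, 9.66, 10.2, 14.1 and 13.6 CPM in siCONTROL and 8.15 to 11 CPM at time 0. It rose in siJun (1.76, adjusted p = 1.86e-07) and did not pass in siCONTROL (0.34, adjusted p = 0.0742), and the difference itself passed (1.43 ± 0.14 SE, adjusted p = 7.06e-05). Tmem173, the innate DNA-sensing adaptor STING, had 35.9 to 67.7 CPM in siJun, 6.30 to 21.9 CPM in siCONTROL and 10.6 to 17.3 CPM at time 0 (1.57, adjusted p = 0.00786).

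Tac1 and Nptx1 fell steeply in siCONTROL and kept most of their level in siJun. Tac1, the precursor of substance P, a transmitter of peptidergic nociceptors, had 447.1, 426.1, 633.7 and 498.2 CPM in siJun, 118.5, 105.1, 137.4 and 101.4 CPM in siCONTROL and 650.4, 558.7, 823.1 and 544.8 CPM at time 0. The siJun libraries overlapped time 0 and lay above every siCONTROL library (siJun minus siCONTROL 2.12 ± 0.16 SE, adjusted p = 9.81e-06). In siCONTROL Tac1 fell by 2.48 on the log2 scale from time 0 (adjusted p = 1.36e-08). In siJun it stood at -0.36 with an adjusted p of 0.0494, which did not pass in 10 of 20 alternatives (0.183 at most, without time 0 replicate 3). Nptx1, a secreted pentraxin that clusters glutamate receptors, had 124.1, 118.3, 62.7 and 85.8 CPM in siJun, 19.0, 25.5, 14.3 and 17.5 CPM in siCONTROL and 118.7 to 153.3 CPM at time 0. It fell in siCONTROL (-2.80, adjusted p = 1.03e-07) and did not pass in siJun (-0.46, adjusted p = 0.0524), with a difference between the pools of 2.34 ± 0.22 SE (adjusted p = 4.39e-05).

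Most nociceptor markers fell in both cultures, and some stood higher in siJun. Of 18, 14 were lower than at time 0 in siJun (median -2.03) and 13 in siCONTROL (median -2.53), and between the pools 6 were higher and 1 lower in siJun (median 0.37). Of all genes tested 2.7% were higher and 3.76% lower in siJun, and of all genes lowered in culture 7.62% were higher. Scn11a, the sodium channel Nav1.9, had 36.9, 33.3, 37.1 and 33.3 CPM in siJun, 22.2, 20.9, 22.5 and 20.2 CPM in siCONTROL and 331.3 to 424.5 CPM at time 0 (0.71 ± 0.10 SE, adjusted p = 0.00108). Scn10a, the sodium channel Nav1.8, had 117.6 to 128.4 CPM in siJun, 81.8 to 94.5 CPM in siCONTROL and 600.2 to 759.2 CPM at time 0 (0.52, adjusted p = 0.00193). In both genes the cultures did not overlap, and most of the fall took place in siJun too. Calca, the precursor of CGRP, had 2045 to 2433 CPM in siJun, 1524 to 1993 CPM in siCONTROL and 3348 to 4373 CPM at time 0. Its call (0.37, adjusted p = 0.0343) was lost in 7 of 20 alternatives, with adjusted p up to 0.105. Ret, a receptor of GDNF family ligands, was the member that was lower, at 339.1 ± 43.1 CPM in siJun, 498.6 ± 46.8 CPM in siCONTROL and 566.1 ± 39.1 CPM at time 0 (SD, n = 4 each, -0.56, adjusted p = 0.00345).

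Voltage-gated channel genes, which share Scn10a and Scn11a with the nociceptor list, gave a similar picture. Of 32, 27 were lower than at time 0 in siJun and 28 in siCONTROL, and 8 were higher and 1 lower in siJun than in siCONTROL (median 0.13). Of all genes tested 2.7% were higher and 3.76% lower. Of the 20 lowered at least 2-fold in culture, 5 fell less in siJun and 5 were bounded within 1.5-fold, against 7.62% and 27.1% of all lowered genes. Scn3b, an auxiliary sodium channel subunit, had 28.7 to 40.8 CPM in siJun, 18.2 to 23.2 CPM in siCONTROL and 78.2 to 95.9 CPM at time 0 (0.85, adjusted p = 0.00168). Kcnd1, an A-type potassium channel, had 42.9 to 53.6 CPM in siJun, 24.3 to 30.9 CPM in siCONTROL and 154.9 to 172.6 CPM at time 0 (0.78, adjusted p = 0.000398). Kcna2, a potassium channel of large neurons and axons, fell to 7.34 to 10.6 CPM in siJun and 5.85 to 9.32 CPM in siCONTROL, against 94.0 to 135.7 CPM at time 0, and the cultures overlapped (0.22, adjusted p = 0.608).

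Other smaller falls were found at low levels. Chrna6, a nicotinic receptor subunit, had 4.34, 4.33, 3.52 and 2.37 CPM in siJun, 0.878, 1.37, 0.995 and 0.682 CPM in siCONTROL and 59.4 to 78.4 CPM at time 0 (1.80 ± 0.28 SE, adjusted p = 0.00205). Il6, the cytokine, had 3.52 to 5.67 CPM in siJun, 0.909 to 1.67 CPM in siCONTROL and 8.68 to 16.0 CPM at time 0 (1.64, adjusted p = 0.00539). The lipid hydrolase gene Pnpla3 had 1.64 to 4.56 CPM in siJun, 0.497 to 1.46 CPM in siCONTROL and 12.6 to 22.3 CPM at time 0 (1.91, adjusted p = 0.0112). For Il6 and Pnpla3 the calls did not pass with all 36 libraries of the siRNA table in the fit (adjusted p = 0.103 and 0.0514). In these genes every culture library lay below time 0, and every siJun library above siCONTROL. Of the identity factors of sensory neurons, Pou4f1, the homeodomain factor Brn3a, had 160.6, 164.4, 189.1 and 168.6 CPM in siJun, 128.8, 113.0, 105.9 and 129.3 CPM in siCONTROL and 187.2 to 234.2 CPM at time 0 (0.52 ± 0.09 SE, adjusted p = 0.00513).

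Several itch receptors of the Mas-related family fell to or near 0 in both cultures. Of 12 itch receptors and markers, 9 were lower than at time 0 in siJun and 10 in siCONTROL. Mrgprd, a receptor of nonpeptidergic nociceptors, had 0.728 to 1.17 CPM in siJun, 1.06 to 1.46 CPM in siCONTROL and 146.2 to 185.3 CPM at time 0 (siJun minus time 0 of -7.48 ± 0.14 SE, adjusted p = 5.1e-13). Mrgprb4 had no count in any culture library and 26.7 to 39.9 CPM at time 0, so it was at least 235.2-fold lower in siJun, against a floor of 3 counts over the group. Mrgprx1, whose human relative is a receptor of pruritogens, was at 0.334 to 1.09 CPM in siJun, at 0 in every siCONTROL library and at 37.4 to 49.7 CPM at time 0. By the same floor it was at least 5.13-fold higher in siJun than in siCONTROL (adjusted p = 0.00651), which rests on 16 counts weighted by transcript length, not reads.

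Most falls remained in siJun. Of 14 markers of large-diameter neurons 12 were lower than at time 0 in each culture, and none was called between the pools by edgeR, against 1 by DESeq2 and 2 at an unadjusted p under 0.05. Of 29 synaptic vesicle and exocytosis genes 23 were lower in each culture, 16 of them at least 2-fold, of which 10 were bounded within 1.5-fold and 2 fell less in siJun, against 27.1% and 7.62% of all lowered genes. Sv2a, a synaptic vesicle glycoprotein, was 1 of the 2 that fell less, with 14.4 to 18.4 CPM in siJun, 8.49 to 10.8 CPM in siCONTROL and 38.2 to 45.5 CPM at time 0 (0.68, adjusted p = 0.00539). Syt4, a synaptotagmin, rose instead, to 827.1 to 1069 CPM in siJun and 816.1 to 954.0 CPM in siCONTROL, against 179.3 to 214.2 CPM at time 0, with an interval of the difference from -0.13 to 0.23. Besides Fos and Fosb, the largest bounded falls were those of Rnf112, Tmem233, Prmt8, Amigo3, Plcb3 and Gm765, with mean changes in siJun between -4.43 and -3.15 on the log2 scale. Gm765 was bounded and also called higher in siJun than in siCONTROL (0.35, adjusted p = 0.0471), a call that did not pass in 14 of 20 alternatives. Plcb3, a phospholipase C, had 67.2, 53.6, 64.6 and 62.6 CPM in siJun, 53.8, 57.6, 60.0 and 58.6 CPM in siCONTROL and 571.5 to 795.8 CPM at time 0. Tmem233 had 28.3 to 51.3 CPM in siJun, 35.7 to 52.2 CPM in siCONTROL and 627.6 to 903.3 CPM at time 0. Both genes overlapped between the cultures.

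A few falls were deeper in siJun, 34 of the 1759. B630019K06Rik had 4.67 to 5.87 CPM in siJun, 10.8 to 15.5 CPM in siCONTROL and 21.7 to 26.3 CPM at time 0 (-1.28, adjusted p = 0.000274). Tmem25 had 48.5, 47.9, 30.2 and 31.1 CPM in siJun, 83.7, 100.3, 68.8 and 75.5 CPM in siCONTROL and 115.9 to 131.7 CPM at time 0 (-1.06 ± 0.16 SE, adjusted p = 0.00167). Shh, the ligand sonic hedgehog, had 2.18 to 5.02 CPM in siJun, 6.96 to 10.5 CPM in siCONTROL and 8.42 to 13.6 CPM at time 0, and it fell in siJun (-1.65, adjusted p = 0.000146) without passing in siCONTROL (-0.37, adjusted p = 0.222; difference -1.27, adjusted p = 0.0134). It was 1 of 15 genes, with Jun, Tmem173, Nab2 and Ccdc39, that changed at least 2-fold in siJun, did not pass in siCONTROL and differed between the pools. The difference of Ccdc39 (adjusted p = 0.0184) did not pass without siJun replicate 2, siJun replicate 4 or siCONTROL replicate 1 (adjusted p of 0.0508 to 0.0568).

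In 17 genes the cultures moved in opposite directions from time 0, with 7 higher and 10 lower in siJun than in siCONTROL. Glul, glutamine synthetase, had 175.3, 171.2, 153.0 and 150.0 CPM in siJun, 382.2, 429.4, 290.6 and 375.5 CPM in siCONTROL and 276.9, 270.7, 282.1 and 237.1 CPM at time 0. It fell in siJun (-0.72, adjusted p = 5.41e-05) and rose in siCONTROL (0.47, adjusted p = 0.00146), and no library of the 3 groups overlapped another group (siJun minus siCONTROL -1.19 ± 0.11 SE, adjusted p = 3.95e-05). Hk1, hexokinase, the first enzyme of glycolysis, had 174.0 to 207.9 CPM in siJun, 336.2 to 401.4 CPM in siCONTROL and 314.2 to 334.5 CPM at time 0 (-0.97, adjusted p = 1.5e-05). Cntnap5b, a neurexin family adhesion gene, had 7.21 to 12.4 CPM in siJun, 2.82 to 3.19 CPM in siCONTROL and 4.27 to 6.22 CPM at time 0 (1.61, adjusted p = 0.00121). Gprc5c had 35.2 to 51.7 CPM in siJun, 18.7 to 24.4 CPM in siCONTROL and 26.5 to 32.9 CPM at time 0 (0.88, adjusted p = 0.00217). Hap1, a huntingtin-associated transport protein, had 13.8 to 21.0 CPM in siJun, 5.56 to 10.1 CPM in siCONTROL and 10.8 to 14.2 CPM at time 0 (1.04, adjusted p = 0.00481). Its rise in siJun (adjusted p = 0.0314) did not pass in 7 of 20 alternatives.

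Genes of dividing cells rose in both cultures. Of 15 cell cycle genes tested, 11 were higher than at time 0 in siJun (median 1.60) and 13 in siCONTROL (median 1.91), none was called between the pools by edgeR, 1 by DESeq2 and 2 at an unadjusted p under 0.05, and their median difference was -0.32. Ccnd1, cyclin D1, had 82.5, 82.1, 127.3 and 147.5 CPM in siJun, 98.3, 102.8, 164.0 and 166.2 CPM in siCONTROL and 11.5 to 15.3 CPM at time 0. Replicates 3 and 4 were the higher ones in both cultures, as they were for the fibroblast gene Postn, at 106.7 and 122.9 CPM against 48.7 and 52.0 CPM in siJun. The 19 interferon response genes tested had a median change from time 0 of 0.06 in siJun and -0.57 in siCONTROL, and a median difference of 0.42. Between the pools 1 was called higher in siJun by edgeR and 2 by DESeq2, and none lower. At an unadjusted p under 0.05, 7 were higher and 0 lower. The 1 called by edgeR was Ddx58, the RNA sensor RIG-I. It had 17.3 to 24.5 CPM in siJun, 10.9 to 13.5 CPM in siCONTROL and 17 to 20.2 CPM at time 0 (0.76, adjusted p = 0.00412). This call did not pass with all 36 libraries of the siRNA table in the fit (adjusted p = 0.135).

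For the calls in the remaining lists, 3.76% of all genes tested were lower and 2.7% higher in siJun than in siCONTROL. Of the genes called in them, Inhba, Ret, Glul and Gap43 stand in lists above as well. Of 39 growth factor and receptor genes tested, 18 were higher and 13 lower than at time 0 in siJun, against 19 and 12 in siCONTROL, and 2 were higher and 4 lower in siJun than in siCONTROL. Of 14 genes that Jun is known to drive in repair Schwann cells, 7 were higher and 5 lower than at time 0 in siJun, against 9 and 2 in siCONTROL, and 3 were lower in siJun than in siCONTROL (Shh, Glul and Gap43). Of 21 cholesterol genes 11 were lower than at time 0 in siJun and 12 in siCONTROL, with Star and Insig1 lower in siJun than in siCONTROL. Insig1, which holds back cholesterol synthesis, had 103.5 to 124.8 CPM in siJun, 131.2 to 157.7 CPM in siCONTROL and 88.0 to 93.5 CPM at time 0 (-0.38, adjusted p = 0.00772). Of 16 identity factors of sensory neurons 12 were lower than at time 0 in each culture, and 3 were higher and 1 lower in siJun than in siCONTROL. Red cell markers were lower than at time 0 in both cultures, summing to 5.37 to 12.9 CPM in siJun, 4.31 to 11.7 CPM in siCONTROL and 169.7 to 211.3 CPM at time 0.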

How the data were processed

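Members were the siJun and time 0 libraries, by their treatment labels. The members, gene lists and named genes were chosen with earlier results of these data known. The authors deposited expected counts (estimated counts that need not be whole) per gene, for which the submitters' processing notes name kallisto and GRCm39. Version, annotation release and scaling are not stated in the sources used here. Small values times transcript length were most often near 1 constant in each library (2039 to 2208 bp), so the deposited expected counts were taken to be weighted by length, a weight that cancels in fold changes. It does not cancel in folds against the floor of 3 counts, and a count is not the same as a read.

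Expected counts were rounded, filtered with filterByExpr and fitted in edgeR 4.0.16 (R 4.3.3) by quasi-likelihood with TMM factors and group only, over 12 libraries. Tests were two-sided, with Benjamini-Hochberg adjustment over 14044 genes and a threshold of 0.05. SEs and 95% intervals come from the F statistic. Bounded within 1.5-fold means that the interval of siJun minus siCONTROL lay inside 1.5-fold and that a culture held more than 3 counts, a condition added after values were seen. The script was tested on simulated data.

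Named genes, of at least 5 CPM, were those with the strongest loss, gain or persistence of a culture change, the strongest calls of each list and the AP-1 subunits. Chosen after values were seen were Sprr1a, Plaur, Cd44, Adcyap1, Scn10a, Calca, Crh, Tubb3, Gal, Sox11, Rps6, Itga7, Mapt, Ret, Bcl2l1 and Prph. Of 535 genes in 32 lists, 514 were tested. Some genes that met the rule are not reported here. Alternatives changed the scaling, filter, tool (DESeq2 1.42.0), libraries in the fit or replicate block, or left out a library.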

Additional observations from a re-analysis of the deposited data

Results flagged for a closer look

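In each group of 4 libraries the highest and the lowest value of every named gene was set against the other 3, and 25 of 404 groups whose values were not all equal had 1 library that stood apart by Dixon's criterion, close to the 1 in 20 that chance flags. Among siJun libraries these were Fgf21 in replicate 2 (32.1 CPM, others 13.7 to 15.8), Tmem173 in replicate 2 (67.7 CPM, others 35.9 to 40.6), Nts in replicate 2 (362.0 CPM, others 436.1 to 450.9), Slc17a8 in replicate 1 (1.67 CPM), Tubb6 in replicate 3 (88.6 CPM, others 104.2 to 107.1), Scn10a in replicate 3 (117.6 CPM, others 127.1 to 128.4) and H2-Aa in replicate 3 (0.503 CPM, others at 0). Among siCONTROL libraries they were Nes in replicate 4 (110.7 CPM, others 88.4 to 90.7), Amigo3 in replicate 4 (4.09 CPM), Dusp1 in replicate 1 (214.8 CPM, others 190.7 to 194.8), Psat1 in replicate 3 (184.0 CPM), Slc6a9 in replicate 1 (24.0 CPM) and Ncmap in replicate 1 (6.44 CPM). Among time 0 libraries they were Serpinb8 in replicate 2 (20.1 CPM), Il6 in replicate 2 (16.0 CPM), Csf1 in replicate 2 (17.1 CPM), Slc6a9 in replicate 3 (8.02 CPM), Tars in replicate 1 (20.8 CPM) and Ncmap in replicate 3 (5.01 CPM). At few counts at time 0, 2210017I01Rik in replicate 4 (2.11 CPM), Mmp12 in replicate 1 (0.429 CPM), Fgf21 in replicate 3 (0.602 CPM) and Slc7a11 in replicate 2 (0.213 CPM) were the 1 library above 0. There Inhba in replicate 4 and Sprr1a in replicate 3 were the 1 library at 0 (0.0 CPM), with the others at 0.602 to 0.644 and 0.64 to 0.704 CPM.

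In 5 named genes siJun and siCONTROL moved in opposite directions from time 0, and siJun minus siCONTROL, which tests the difference itself, passed in each. It was 1.61 for Cntnap5b, -1.19 for Glul, 1.04 for Hap1, -0.97 for Hk1 and 0.88 for Gprc5c on the log2 scale.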

How the results depend on the processing

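Scaling by DESeq2's size factors or upper quartiles, DESeq2 itself, no filter, a stricter filter, all 36 libraries of the siRNA table, only the groups of a comparison and the replicate block left every count within 1.5 times its value. Raised genes lower in siJun numbered 117 to 199 and lowered genes higher in siJun 114 to 167 over these. With all 36 libraries 134 of the 137 raised genes lower in siJun were called again, and 119 of the 134 lowered genes higher in siJun. With no filter 115 of the 137 were called again. Without any 1 of the culture libraries this held for 91 to 100 of the 137 and for 93 to 103 of the 134. Leaving out 1 of the 12 libraries gave 93 to 145 raised genes lower in siJun and 18 to 39 higher, 95 to 131 lowered genes higher in siJun and 21 to 34 lower, and a median over lowered genes of 0.077 to 0.15. Over all genes it gave 248 to 381 higher and 324 to 533 lower in siJun than in siCONTROL, and 44 to 74 lower at least 2-fold. Each of these fits also held 1 library fewer, and the cause of the changes in count was not tested. No direction reversed. Of 1457 calls of named genes between the pools under an alternative 140 were lost, and of 2637 against time 0 28 were lost. Calls of Farsa (17 of 20 alternatives), Gm765, Lrrtm3 and Npy (14 each) were lost most often. Same-numbered libraries correlated by 0.035 to 0.21 after group means were removed, and different-numbered ones by -0.192 to 0.101. Between siJun and siCONTROL, on which the calls between the pools rest, the same-numbered values were 0.0959, 0.187, 0.21 and 0.166. In 22 of 24 comparisons the highest correlation was with the same number, so libraries of equal number shared part of their spread. The labels name no pairs and 5 of 12 same-numbered pairs lay above 0.1, the cut used, so the main fit did not pair them. Its adjusted p and intervals therefore do not take that shared part out of the spread. With the replicate block 159 raised genes were lower and 167 lowered genes higher in siJun. At 3437120 to 6621566 counts per library, genes with few counts give wide intervals, and 922 raised and 1131 lowered genes were neither called nor bounded.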
